A study of Mus musculus with 26 samples.

Results

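Of the 55416 genes in the deposited count tables, 10 genes of T cell quiescence and survival were followed here across all libraries of the series: Il7r, S1pr1, S1pr4, Foxo1, Foxo3, Foxp1, Btg1, Satb1, Bcl2 and Cd44. They were found by mouse symbol through their Ensembl identifiers, and all 10 were detected and tested in each kind of material. RNA came from C57BL/6 mice whose lungs carried melanoma metastases grown from B16F10 cells, a line of mouse origin given into a vein. One arm got Propranolol, which blocks β-adrenoceptors, and the other arm had no treatment. Titles of the treated CD4 T cell libraries spell the agent propanol, and they were grouped by their treatment label, which reads Propranolol. No gene was targeted, so the counts hold no check of the treatment labels. CD4 T cells isolated from lung with magnetic beads gave 4 untreated and 4 treated libraries, monocytes isolated from lung by flow sorting gave 4 and 4, and whole lung gave 5 and 5. Every group carried the tumour, so no tumour-free lung stands beside them. Dose, duration, age and sex were not given in the sources used here. The labels do not say whether each library is a different mouse, and a p-value here weighs a change against library spread alone, which may be technical.

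A resting T cell is kept small and out of the cell cycle by an active programme. The interleukin-7 receptor sustains survival through BCL-2, sphingosine-1-phosphate receptors direct recirculation out of tissue, and FOXO and FOXP transcription factors, the antiproliferative protein BTG1 and the chromatin organiser SATB1 hold the resting state. Signals through the antigen receptor activate PI3K and AKT, which moves FOXO proteins out of the nucleus, while CD44, an adhesion receptor for hyaluronan, is raised on activated and memory T cells and is also abundant on myeloid and many tumour cells.

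Depth was 17625672 to 42484125 counts per library for CD4 T cells, 29650148 to 47618634 for whole lung and 36277687 to 48306925 for the libraries labelled monocytes. Against its markers the CD4 T cell material held Cd4 at a mean of 644 CPM of the library total (plain CPM) and Cd3e at 290 in untreated libraries, with Cd8a at 4.56 and with Sftpc, Tyrp1 and Dct at 0 in all 8. It also held Igha, an immunoglobulin heavy chain gene of plasma cells, at 6706 plain CPM. The libraries labelled monocytes held Csf1r at 457 plain CPM, but also the endothelial gene Cdh5 at 1679 and the alveolar gene Sftpc at 2300. Within treated CD4 T cells, replicates 3 and 4 lay close together (chi-square over degrees of freedom 5.46). Treated replicates 1 and 2 differed from each other by 139 and from replicates 3 and 4 by 37.1 to 50.1. Pairs of untreated CD4 T cell libraries had 4.84 to 7.07, about as close as treated replicates 3 and 4. Both groups of monocyte libraries fell into close pairs, replicates 1 with 2 and 3 with 4, with chi-square over degrees of freedom of 3.52 to 5.24 within pairs and 12.2 to 35.6 between them.

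Since cyclic AMP, the messenger of β-adrenoceptors, acts through the cyclic AMP response element (CRE), and since FOXO proteins are both members of the set and regulators of some T cell genes, the members' promoters were read for both kinds of motif. RefSeq promoter entries, on GRCm38.p6 and not on the GRCm39 build of the counts, matched 9 of the 10 genes by symbol with 15 windows. S1pr1 was not matched. In the 250 bases before each start site, both strands were searched for the full CRE (TGACGTCA), its shorter core (TGACG, which is also contained in the full element) and the FOXO motif GTAAACA. The full CRE was in 0 of the 15 windows, against 1.55% of the 32851 windows of all genes in the table. The shorter core was in 4 of 15, against 17.8%, and the FOXO motif in 1 of 15, against 3.17%. Btg1 held the FOXO motif 204 bases before its start, on the opposite strand, and the shorter core on that strand at 187 and 103 bases. Bcl2 held the core 107 bases before its start on its own strand, Foxo3 at 64 bases and the third Foxp1 window at 224 bases, both on the opposite strand. The promoters of 4 genes are printed for the genes whose changes frame the results: the only window with a FOXO match, the member with the largest change, and the pair that fell. Each runs 5′ to 3′ on the gene's strand and ends at the base before the start, and capitals mark the motif letters, which read as the reverse complement for a match on the opposite strand. The windows are chr10:96616751-96617000 (plus strand) for Btg1, chr17:51833291-51833540 (minus strand, the first of 5 listed) for Satb1, chr10:81500138-81500387 (minus) for S1pr4 and chr1:106714291-106714540 (minus) for Bcl2.
Btg1: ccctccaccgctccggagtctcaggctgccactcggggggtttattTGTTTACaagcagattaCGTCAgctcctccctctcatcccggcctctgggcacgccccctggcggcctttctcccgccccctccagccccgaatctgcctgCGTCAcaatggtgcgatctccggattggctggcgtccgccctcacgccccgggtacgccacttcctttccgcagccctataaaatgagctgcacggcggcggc
Satb1: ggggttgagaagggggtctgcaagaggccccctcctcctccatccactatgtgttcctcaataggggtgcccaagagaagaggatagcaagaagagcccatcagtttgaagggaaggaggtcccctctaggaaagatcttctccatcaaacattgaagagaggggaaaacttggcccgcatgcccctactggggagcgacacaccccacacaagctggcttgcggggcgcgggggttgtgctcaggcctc
S1pr4: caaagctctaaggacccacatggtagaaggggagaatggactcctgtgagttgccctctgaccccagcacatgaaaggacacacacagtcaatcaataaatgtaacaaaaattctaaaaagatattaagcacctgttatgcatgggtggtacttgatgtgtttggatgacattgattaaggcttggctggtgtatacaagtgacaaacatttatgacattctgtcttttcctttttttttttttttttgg
Bcl2: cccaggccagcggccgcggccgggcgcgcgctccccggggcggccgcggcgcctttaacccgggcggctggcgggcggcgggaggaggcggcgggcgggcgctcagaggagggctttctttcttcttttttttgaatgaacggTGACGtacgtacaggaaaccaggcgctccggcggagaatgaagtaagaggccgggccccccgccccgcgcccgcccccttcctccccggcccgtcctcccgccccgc
The windows of Satb1 and S1pr4 held none of the searched letters. A match is a description of the letters and not of a bound site, and its absence says nothing about the factor.

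In untreated libraries Il7r and Satb1 differed most between CD4 T cells and whole lung, and Il7r between CD4 T cells and the libraries labelled monocytes. Il7r was 49.3-fold and Satb1 41.9-fold higher in plain CPM in CD4 T cells than in whole lung, and S1pr4, a sphingosine-1-phosphate receptor of leukocytes, was 14.9-fold higher. Btg1 was 6.88-fold, Foxo1 5.77-fold, Bcl2 3.64-fold, S1pr1 2.44-fold, Foxp1 1.88-fold and Foxo3 1.33-fold higher. Cd44 was the exception, at 0.279 of its level in lung. For each of these genes the untreated CD4 T cell and lung libraries did not overlap. The share of all genes without such overlap was not computed, so the lack of overlap is not a result about the members. The CD4 T cells stand in a table of their own, so kind of material and table cannot be told apart, and in bulk RNA fewer cells of a type and less RNA per cell cannot be told apart either. Against the libraries labelled monocytes, Il7r was 16.4-fold higher in CD4 T cells, Bcl2 4.30-fold, Satb1 4.25-fold, S1pr4 4.08-fold, Foxo1 3.73-fold, Foxo3 1.40-fold and Btg1 1.31-fold, whereas Foxp1 stood at 0.718, S1pr1 at 0.709 and Cd44 at 0.285 of the monocyte level.

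Between genes, levels were compared as CPM per kilobase of exon, with exon lengths of GENCODE M21 on GRCm38. In untreated CD4 T cells the highest level was that of Btg1, at 112 ± 2.30 (SD, n = 4) CPM per kilobase, followed by S1pr1 at 105 ± 1.81, Il7r at 89.7 ± 3.25 and S1pr4 at 55.9 ± 2.69. Foxo1 at 29.9 ± 0.772, Cd44 at 27.5 ± 1.38, Satb1 at 24.4 ± 0.971, Bcl2 at 22.5 ± 0.471, Foxo3 at 21.4 ± 0.646 and Foxp1 at 16.8 ± 0.581 came below. Among neighbours in that order only Bcl2 and Foxo3 had overlapping ranges. With propranolol Satb1 moved from the seventh to the third place, at 85.6 ± 2.28 CPM per kilobase, and Bcl2 from the eighth to the last, at 14.7 ± 0.313. In untreated lung the order was led by Cd44, at 98.6 ± 14.6 (SD, n = 5), and closed by Satb1, at 0.582 ± 0.252. In the untreated libraries labelled monocytes S1pr1 led, at 148 ± 6.33 (SD, n = 4), above Cd44 at 96.7 ± 7.03 and Btg1 at 85.1 ± 4.76.

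**Figure D1:**
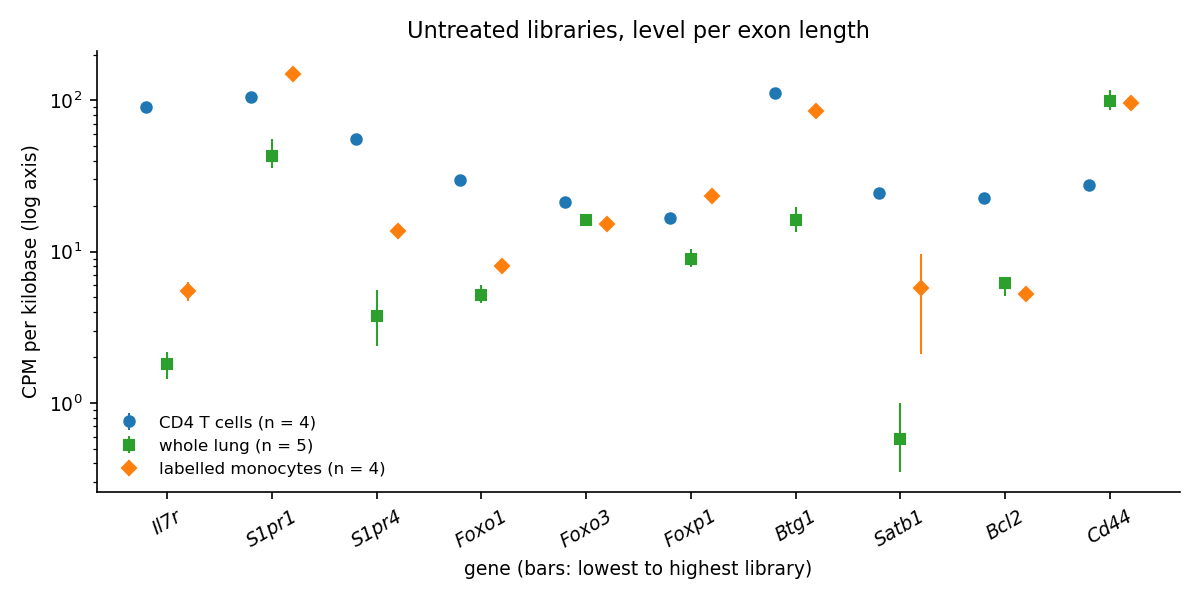
Level of the 10 genes in untreated libraries, as CPM per kilobase of exon on a log axis. Points are group means and bars run from the lowest to the highest library. Il7r and Satb1 lie far higher in CD4 T cells (89.7 and 24.4) than in whole lung (1.82 and 0.582), while Cd44 lies lower (27.5 against 98.6).

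With propranolol, 6 of the 10 members rose and 2 fell in CD4 T cells (edgeR quasi-likelihood test, Benjamini-Hochberg adjusted p under 0.05). Among all 16550 genes tested there, 60.0% passed the same test, 30.1% higher and 29.9% lower. The members' median log2 change was 0.88, over a range from -0.74 to 2.20, against a median of -0.04 over all genes tested. Satb1, Btg1, S1pr1, Cd44, Foxp1 and Foxo1 were the genes that rose, in order of size, and S1pr4 and Bcl2 those that fell. For these 8 genes, treated and untreated libraries did not overlap in CPM scaled by TMM, which was the case for 56.4% of all genes tested (27.9% higher, 28.5% lower). Il7r and Foxo3 did not pass. Without treated replicate 1 or treated replicate 2, the libraries that stood apart, the counts were again 6 and 2.

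**Figure D2:**
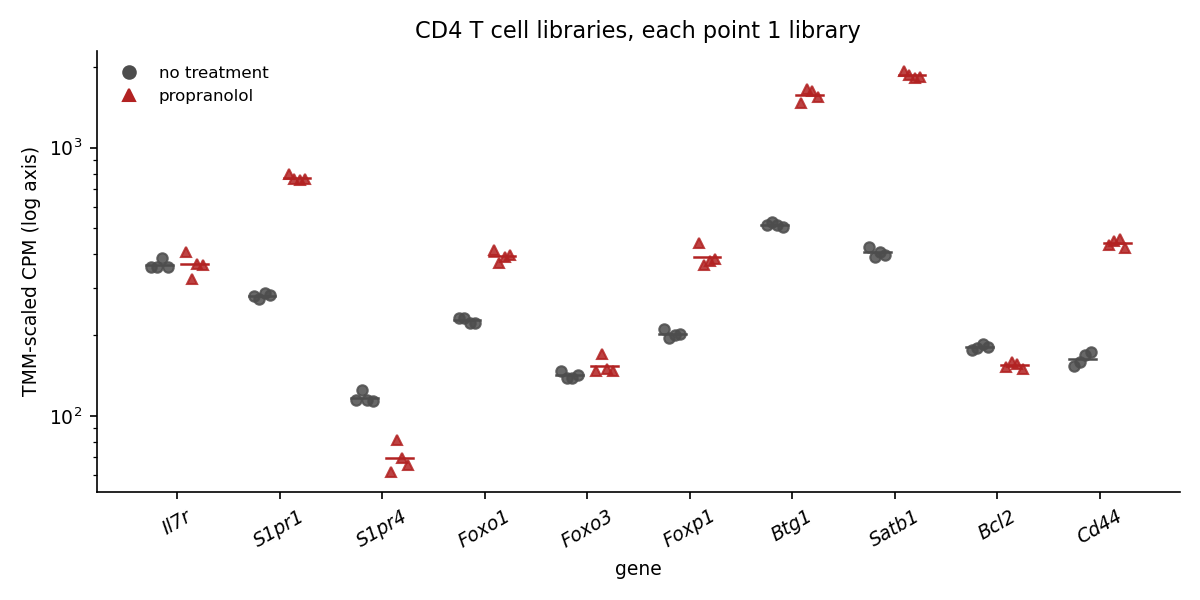
TMM-scaled CPM (log axis) of the 10 genes in each CD4 T cell library, with untreated libraries as circles, treated libraries as triangles and group means as lines. Satb1 rises from 406 to 1865 and S1pr4 falls from 117 to 69.7 with no overlap, while the Il7r libraries overlap.

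Il7r, the specific chain of the interleukin-7 receptor and a target gene of FOXO1, was level between the groups on the TMM scale. Untreated libraries 1 to 4 had 359, 359, 387 and 359 TMM-scaled CPM, and treated libraries 409, 325, 368 and 365. The treated libraries spread around the untreated ones on both sides. The mean was 366 ± 13.7 without and 367 ± 34.5 with treatment (SD, n = 4 each), and the log2 change was 0.00 ± 0.07 (SE, adjusted p = 0.985). When libraries were scaled on their totals alone, the change was -0.38 (adjusted p = 6.53e-04), and when scaled on the summed T cell markers it was -0.80, so Il7r fell under either of those scalings. Under the T cell marker scaling 1555 of the 16550 genes tested were higher and 11202 lower, with a median of -0.83, and every list count under that scaling stands against those. Of the other 17 genes of interleukin-7 and common gamma chain signalling, 15 were tested, 13 rose and 2 fell, with a median log2 change of 1.35. Scaled on the T cell markers, 9 rose and 2 fell. Il21r, the interleukin-21 receptor, rose from 170 ± 4.04 to 1039 ± 91.6 TMM-scaled CPM (log2 2.61 ± 0.07), and Stat5b, a transcription factor that acts below the receptor, by 1.47 ± 0.06. Il2rg, the common gamma chain that pairs with the Il7r chain, changed by 0.94 ± 0.10 on the TMM scale and by 0.14 (adjusted p = 0.125) with scaling on T cell markers. The kinase gene Jak3, whose protein binds that chain, fell by 0.59 ± 0.11, and the interleukin-15 receptor chain Il15ra fell by 0.52 ± 0.16.

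Bcl2, the antiapoptotic gene that interleukin-7 sustains in resting T cells, was slightly lower with propranolol. Untreated libraries had 177, 178, 186 and 181 TMM-scaled CPM and treated libraries 152, 159, 157 and 149. Every treated library was below every untreated one. The log2 change was -0.23 ± 0.05 (adjusted p = 0.00258), the smallest among the members that passed. It was negative under TMM, library totals and the T cell markers, the 3 scalings compared in these results. DESeq2 size factors, also run, gave -0.23. Around it, 9 of the 15 tested genes of the 17 other BCL-2 family members rose and 2 fell, with a median of 1.24, while scaling on T cell markers left 8 higher and 7 lower. Bcl2l11, which encodes the proapoptotic protein BIM that BCL-2 restrains, rose from 79.7 ± 3.52 to 513 ± 0.817 TMM-scaled CPM (log2 2.69 ± 0.06, adjusted p = 1.52e-11). Pmaip1, the gene of the proapoptotic protein NOXA, rose from 8.13 ± 0.818 to 123 ± 5.68 (3.92 ± 0.09). Of the antiapoptotic relatives, Bcl2l1 rose by 1.24 ± 0.08 and Bcl2l2 fell by 0.88 ± 0.12, and Mcl1 changed by 0.59 ± 0.06 on the TMM scale but by -0.20 with scaling on T cell markers. Bad, another proapoptotic gene, fell by 0.93 ± 0.16. The near-identical Bcl2a1 copies in the list share reads and are uncertain.

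The sphingosine-1-phosphate receptors of the set moved in opposite directions. S1pr1, the receptor through which lymphocytes leave tissue along the sphingosine-1-phosphate gradient, had 280, 273, 286 and 282 TMM-scaled CPM in untreated and 796, 763, 754 and 761 in treated CD4 T cell libraries. Treated libraries lay far above untreated ones and within a narrow band. The mean rose from 281 ± 5.30 to 768 ± 18.6 (2.74-fold, log2 1.45 ± 0.05, adjusted p = 5.63e-10). S1pr4 had 114, 125, 115 and 113 in untreated and 61.8, 81.6, 69.7 and 65.8 in treated libraries. Its highest treated library was still below its lowest untreated one. The log2 change of S1pr4 was -0.74 ± 0.08 (adjusted p = 1.48e-05), a mean of 117 ± 5.47 against 69.7 ± 8.54. Both directions held under each of the 3 scalings, with 0.66 for S1pr1 and -1.54 for S1pr4 under the T cell markers. Of the 14 other genes of the axis 4 rose and 6 fell on the TMM scale, with a median of -0.07, and 1 rose and 10 fell with scaling on the T cell markers. Cd69, whose protein removes S1PR1 from the cell surface and marks recently activated or tissue-resident T cells, rose from 74.4 ± 5.89 to 849 ± 34.5 TMM-scaled CPM (log2 3.51 ± 0.07, adjusted p = 1.52e-11). S1pr5 fell by 1.89 ± 0.15 from a level of 8.66 ± 0.696, and Mfsd2b, a transporter of sphingosine-1-phosphate, fell by 1.47 ± 0.13. Sgpl1, the lyase that breaks sphingosine-1-phosphate down, changed by 0.86 ± 0.07, and by 0.06 (adjusted p = 0.518) with scaling on T cell markers.

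Among the forkhead factors, Foxo1 and Foxp1 were higher with propranolol and Foxo3 did not pass. Foxo1, which sustains Il7r and Klf2 in resting T cells, had 231, 231, 222 and 222 TMM-scaled CPM in untreated and 416, 370, 391.8 and 398 in treated libraries. Foxp1, which restrains the exit of naive T cells from quiescence, had 211, 194, 200 and 202 against 440, 364, 378 and 383. Neither gene's groups overlapped, and treated replicate 2 was the lowest treated library for both. The log2 change was 0.80 ± 0.06 for Foxo1 (adjusted p = 2.26e-07) and 0.96 ± 0.07 for Foxp1 (adjusted p = 2.60e-07). With scaling on T cell markers the Foxo1 change was -0.00 and that of Foxp1 0.15 (adjusted p = 0.0376), so the call for Foxo1 depends on the scaling. Foxo3 had 147, 138, 139 and 142 in untreated and 147, 171, 149 and 147 in treated libraries, with treated replicate 2 apart from the other treated libraries. Its log2 change was 0.12 ± 0.06 (adjusted p = 0.136) on the TMM scale, and it was -0.27 (adjusted p = 0.00242) on library totals.

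The genes listed as control of FOXO proteins by PI3K and AKT moved both ways, with 6 higher and 4 lower of 16 and a median of 0.09, but with 3 higher and 12 lower when scaled on T cell markers. Inpp5d, the lipid phosphatase SHIP1 that opposes PI3K, rose by 1.43 ± 0.06, and Pik3r1, the regulatory subunit p85, by 1.30 ± 0.06. Pik3cd, the catalytic subunit p110δ of leukocytes, fell from 593 ± 10.2 to 294 ± 28.8 TMM-scaled CPM (log2 -1.01 ± 0.07). Pdk1, which encodes a pyruvate dehydrogenase kinase and not the kinase of the PI3K pathway with the same protein abbreviation, fell by 1.74 ± 0.06.

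Btg1 and Satb1 showed the largest changes of the set. Btg1, an antiproliferative gene whose product promotes mRNA decay in resting T cells, had 516, 529, 513 and 505 TMM-scaled CPM in untreated and 1462, 1646, 1621 and 1546 in treated libraries. No treated library came near the untreated ones. The mean rose from 516 ± 9.77 to 1569 ± 82.9 (3.04-fold, log2 1.60 ± 0.06, adjusted p = 6.03e-10). Satb1, which organises chromatin at T cell genes and limits effector programmes, had 428, 391.5, 409 and 397 in untreated and 1932, 1866, 1823 and 1837 in treated libraries. The treated libraries again formed a narrow band above all untreated ones. Satb1 rose from 406 ± 15.9 to 1865 ± 48.3 (4.59-fold, log2 2.20 ± 0.05, adjusted p = 4.47e-11), and 3.63% of all genes tested had a larger log2 change. Scaled on the T cell markers the changes were 0.81 for Btg1 and 1.40 for Satb1, so both rose under each of the 3 scalings. The promoter printed for Btg1 is the one with the FOXO letters, and none of the 5 Satb1 windows held any of the searched letters.

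The wider list of quiescence and naive T cell genes was mixed. Of its 22 genes 13 rose and 5 fell on the TMM scale, with a median of 0.52, whereas 5 rose and 12 fell when scaled on the T cell markers, where 11202 of all 16550 genes fell. Ccr7, the chemokine receptor that guides naive and central memory T cells to lymph nodes, rose from 200 ± 3.92 to 1240 ± 48.2 TMM-scaled CPM (log2 2.63 ± 0.06, adjusted p = 1.52e-11). Tob2, an antiproliferative relative of Btg1, rose from 94.7 ± 5.02 to 694 ± 50.3 (2.87 ± 0.07). In contrast Tcf7, the transcription factor TCF1 of naive and memory-like T cells, fell from 1012 ± 16.1 to 617 ± 20.1 (log2 -0.71 ± 0.05). Pik3ip1, an inhibitor of PI3K that resting T cells express, fell by 1.31 ± 0.08. Tcf7 and Pik3ip1 fell under each of the 3 scalings, and Ccr7 and Tob2 rose under each. The transcription factor Klf2, a regulator of S1pr1, changed by 0.57 ± 0.06 with TMM but by -0.23 with scaling on T cell markers, and Lef1 by 0.36 ± 0.07 and -0.44.

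Cd44, the member that marks activated and memory T cells, rose with the quiescence genes Btg1 and Satb1. Untreated libraries had 154, 159, 168 and 172 TMM-scaled CPM and treated libraries 432, 450, 456 and 421. The groups did not overlap. The mean rose from 163 ± 8.50 to 440 ± 16.2 (2.69-fold, log2 1.43 ± 0.06, adjusted p = 2.40e-09), and the change was 0.63 when scaled on the T cell markers. Of 15 genes of T cell activation and growth 13 rose and 1 fell, with a median of 2.24, and 12 rose and 1 fell with scaling on T cell markers. Nr4a1, an immediate early gene of antigen receptor signalling, rose from 82.7 ± 2.71 to 3504 ± 343 TMM-scaled CPM (log2 5.41 ± 0.08), and Egr2, another early gene, from 24.1 ± 0.751 to 290 ± 22.1 (3.59 ± 0.07). The proliferation marker Mki67 was the gene that fell, from 561 ± 26.5 to 313 ± 57.4 (-0.84 ± 0.11).

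Markers of other cells moved with the treatment in the CD4 T cell libraries. All 10 B cell markers rose, with summed plain CPM of 202 to 250 in untreated and 485 to 622 in treated libraries. Of 10 monocyte and macrophage markers 7 rose (386 to 487 against 867 to 987), as did all 6 neutrophil markers (137 to 183 against 451 to 699). Both CD8 T cell markers rose, from a sum of 11.2 to 14.5 to one of 18.8 to 30.4, and the sum of 8 plasma cell markers went from 9303 to 9621 down to 4986 to 9210. The 12 T cell markers themselves ran from 4133 to 4275 untreated and from 5405 to 5966 treated. On the TMM scale 10 of them rose and 0 fell, and on library totals, the scale of those sums, 4 rose and 3 fell with a median of 0.02. The 3 CD4 T cell markers moved both ways on the TMM scale, with Cd40lg at 2.26, Zbtb7b at -1.88 and Cd4 at -0.11 (adjusted p = 0.251). Their sum went from 853 to 887 plain CPM in untreated down to 562 to 751 in treated libraries, without overlap. Of 2 nuclear RNAs chosen after their values were seen, Malat1 fell from 3075 ± 221 to 790 ± 461 TMM-scaled CPM (SD, n = 4), while Neat1 had 447 ± 9.50 and 537 ± 235 (log2 0.26 ± 0.28, edgeR adjusted p = 0.432). The part of these shifts in the members' changes was not tested beyond the scalings and 1 covariate. With the mean B and plasma cell level as a covariate, 7 members were higher and 2 lower, where 3676 of the 16550 genes tested were higher and 2931 lower. In that fit the change of Il7r was 0.36 (edgeR adjusted p = 0.0139). The B cell sums of the arms did not overlap, and the plasma cell sum moved the other way. The fit may therefore not separate the covariate from treatment, and calls gained or lost in it cannot be assigned to either.

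Scaling set the level of every change in CD4 T cells. It shifts all genes by nearly the same amount, so the order of the members by log2 change stayed the same by construction. TMM factors were 1.14 to 1.15 in untreated and 0.867 to 0.879 in treated libraries. On library totals the median of all genes tested was -0.42, with 2886 genes higher and 8064 lower against 4982 and 4947 under TMM. Satb1, Btg1, S1pr1, Cd44 and Foxp1 were higher and S1pr4 and Bcl2 lower under TMM, library totals and the T cell markers, and each passed the test under all 3. Il7r, Foxo1 and Foxo3 are the members whose direction or call changed.

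**Figure D3:**
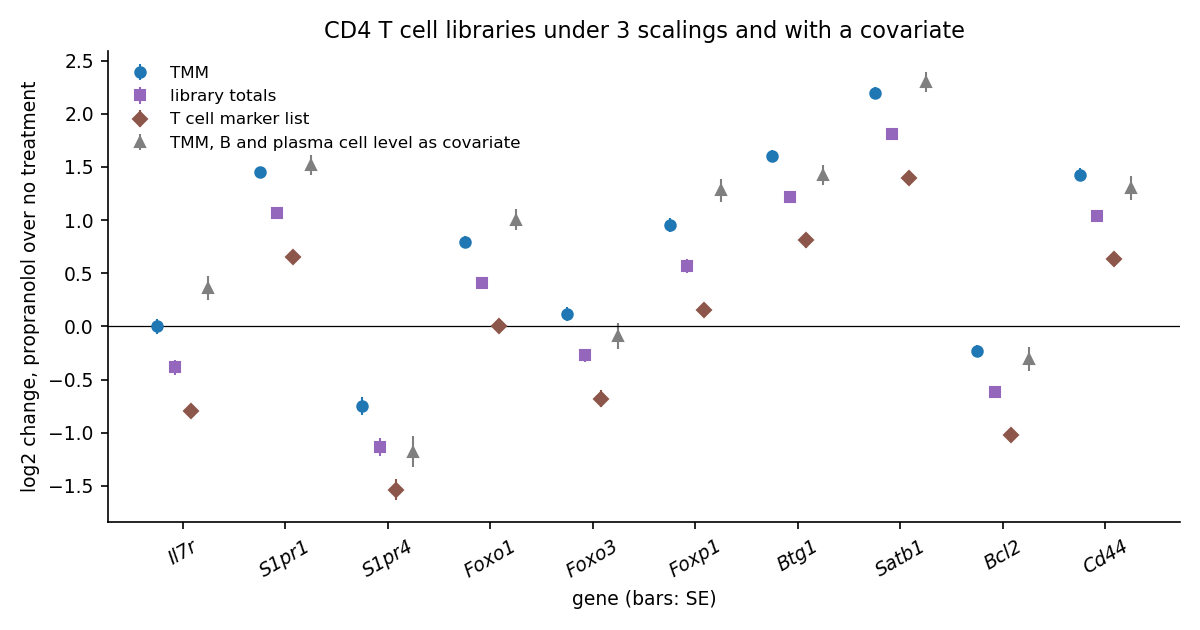
Log2 change of the 10 genes in CD4 T cells (propranolol over no treatment, bars SE) under TMM, under library totals, under scaling on the summed T cell markers, and under TMM with the B and plasma cell level as a covariate. Satb1 stays between 1.40 and 1.81 under the other 2 scalings, below its TMM value of 2.20, while Il7r passes from 0.00 to -0.38 and -0.80.

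Ratios of a pair of members within a library do not depend on the scaling of libraries, and 5 such ratios were compared in each kind of material, 15 tests in all (exact two-sided permutation tests on log2 of counts plus 0.5, Benjamini-Hochberg adjusted over the 15). In CD4 T cells all 5 ratios separated the groups without overlap, each with an exact permutation p = 0.0286, the smallest that 4 against 4 libraries can give (adjusted p = 0.039). The mean log2 ratio of S1pr1 to S1pr4 was 1.27 ± 0.09 untreated and 3.47 ± 0.19 treated (SD, n = 4), a difference of 2.20. That of Bcl2 to Btg1 was -1.51 ± 0.05 and -3.35 ± 0.06, a difference of -1.83. Il7r lost ground to Cd44, from 1.17 ± 0.08 to -0.27 ± 0.17, a 2.699-fold shift. Foxo1 gained on Foxo3 by 0.68, and Foxp1 lost to Satb1 by 1.25 on the log2 scale (difference -1.25). The ratios of these 5 pairs thus shifted whatever scaling is used. Ratios of other gene pairs were not run, so no share over all pairs stands beside them. Of all single genes tested in CD4 T cells, 56.4% had groups that did not overlap on the TMM scale.

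In whole lung the members were also mostly higher with propranolol on the TMM scale, but the genes and their order differed from CD4 T cells. There 7 members rose and 1 fell, among 18639 genes tested of which 70.8% passed, 35.5% higher and 35.3% lower. The members' median was 0.60. Il7r had 9.93, 10.96, 9.95, 7.43 and 7.08 TMM-scaled CPM in untreated libraries 1 to 5 and 17.6, 20.1, 23.5, 20.7 and 15.1 in treated ones. The groups did not overlap, as for 52.5% of all genes tested in lung (23.6% higher, 28.9% lower), and the log2 change was 1.10 ± 0.15 (adjusted p = 1.93e-04). S1pr4 had 6.26, 6.85, 13.7, 9.47 and 11.1 in untreated and 19.2, 24.03, 23.1, 27.8 and 17.1 in treated libraries. It rose by 1.23 ± 0.22 (adjusted p = 5.76e-04), again without overlap, where in CD4 T cells it had fallen. Satb1 went from 11.7 ± 4.79 to 26.0 ± 4.57 (SD, n = 5; log2 1.15 ± 0.24) and S1pr1 from 140 ± 22.5 to 226 ± 36.8 (0.69 ± 0.14), with overlap in both. Foxo1 rose by 0.67 ± 0.10 and Foxp1 by 0.54 ± 0.08 without overlap. Btg1 changed by 0.33 ± 0.13 (adjusted p = 0.036), with overlap, and the call was lost without any one of untreated replicates 1, 4 and 5 or treated replicates 2, 3 and 4 (0.26 to 0.32). Foxo3 at 0.15 ± 0.08 (adjusted p = 0.0992) and Bcl2 at -0.25 ± 0.11 (adjusted p = 0.0647) did not pass. Without treated replicate 5, Foxo3 was called higher (0.20) and Bcl2 lower (-0.33), and Bcl2 also without untreated replicate 4 (-0.33).

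Cd44 fell in lung. Untreated libraries had 872, 822, 605, 617 and 661 TMM-scaled CPM and treated libraries 439, 320, 277, 238 and 471. No treated library reached the lowest untreated one. The mean fell from 715 ± 123 to 349 ± 102 (log2 -1.04 ± 0.20, adjusted p = 8.65e-04). The summed melanocyte markers, genes that melanoma cells of the B16F10 line express, ran from 16873 to 25555 plain CPM in untreated libraries and were 9591, 4668, 2166, 1176 and 11312 in treated libraries 1 to 5, so that treated libraries stood in the same order for Cd44 and for those markers. All 9 melanocyte markers fell, with a median of -2.01. With their mean level as a covariate the Cd44 change was -0.36 (adjusted p = 0.14). In that fit 2 members remained called, Il7r at 0.75 (adjusted p = 0.0342) and Foxp1 at 0.35 (adjusted p = 0.0472). The marker sums of the arms did not overlap, so that fit can hardly separate the covariate from treatment. Lost calls cannot be assigned to either. Calls over all genes tested also dropped, from 13189 of 18639 without the covariate to the counts given further below.

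T cell markers took a larger share of the counts in treated lung. All 12 T cell markers rose, with a median of 1.32 and sums of 36.9 to 66.8 plain CPM in untreated and 96.7 to 156 in treated libraries. The changes of Il7r, S1pr4 and Satb1 were of that size, and scaled on those markers they were -0.26, -0.05 and -0.13, none of the members being called higher and 7 lower. Other leukocyte markers rose in lung as well: all 10 of B cells (median 1.85), all 6 of neutrophils (1.92) and all 9 natural killer and cytotoxic ones (1.48). So did 5 of 6 dendritic cell markers (0.97) and 7 of 10 of monocytes and macrophages (0.74). The part of each cell type in the members' changes was not tested. Of 10 endothelial markers, from cells that also express S1pr1, 9 rose, with a median of 0.82. Scaled on markers of resident lung cells, S1pr1 was at -0.05, Foxo1 at -0.09, Foxp1 at -0.20 and Btg1 at -0.43, and S1pr4 (0.51, adjusted p = 0.00552) and Satb1 (0.44, adjusted p = 0.0297) were the members still called higher. The median of all genes was -0.72 under that scaling (1837 higher, 10785 lower), -1.29 under the T cell markers (497 and 13993) and 0.21 on library totals (8268 and 4770), against 0.03 under TMM (6614 and 6575). Cd44 was lower under each of these scalings. Within lung libraries, the log2 ratio of Il7r to Cd44 rose by 2.17, a 4.503-fold shift opposite to that in CD4 T cells, and that of S1pr1 to S1pr4 by -0.58, also opposite (exact two-sided permutation p = 0.00794 each, adjusted 0.039). The other 3 ratios moved the same way as in CD4 T cells: Foxo1 gained on Foxo3 by 0.52 (p = 0.00794 in the same exact test), and the differences were -0.67 for Foxp1 to Satb1 (exact p = 0.0159) and -0.59 for Bcl2 to Btg1 (exact p = 0.0317), with adjusted p of 0.039, 0.039 and 0.0397.

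In the libraries labelled monocytes the log2 changes of the members that passed lay between -0.57 and 0.38. Of the members 5 rose and 3 fell among 18236 genes tested, of which 30.5% passed, 14.3% higher and 16.1% lower. S1pr1 had 496, 468, 445 and 431 TMM-scaled CPM in untreated and 289, 298, 323 and 326 in treated libraries. The groups did not overlap, as for 31.6% of all genes tested there (14.9% higher, 16.8% lower), and S1pr1 fell by 0.57 ± 0.06 on the log2 scale (adjusted p = 2.46e-05). All 10 endothelial markers fell as well, with a median of -0.47 and sums of 7493 to 7790 against 5767 to 5810 plain CPM, and their part in the S1pr1 change was not tested. Btg1 rose by 0.38 ± 0.04 (adjusted p = 2.88e-05), from 457 ± 16.7 to 594 ± 10.6, and Bcl2 by 0.38 ± 0.05 (adjusted p = 1.09e-04), from 48.8 ± 2.36 to 63.6 ± 1.23. Il7r (0.38 ± 0.09), Foxo1 (0.18 ± 0.05) and Cd44 (0.29 ± 0.08) were also higher, and Foxo3 (-0.16 ± 0.03) and Foxp1 (-0.26 ± 0.05) lower. Markers of lymphoid and tumour cells moved with these rises. All 10 B cell markers rose, with sums of 188 to 286 plain CPM in untreated and 451 to 500 in treated libraries, and all 9 natural killer and cytotoxic markers rose, from 28.4 to 34.2 up to 91.9 to 135. Of 9 melanocyte markers 7 rose. Cd44 had 740, 697, 618 and 614 TMM-scaled CPM in untreated libraries 1 to 4 and 720, 752, 883 and 903 in treated ones. The melanocyte sums were 5503, 5258, 4713 and 4570 and then 5791, 6164, 8233 and 8457 plain CPM. Within each group the libraries thus stood in the same order for Cd44 and for those markers. The monocyte and macrophage sums stood in that order too, at 5568, 5236, 4493 and 4299 and then 5064, 5231, 6029 and 6136. The part of these markers in the members' changes was not tested. With the close libraries summed, which leaves 2 sums a group, only Btg1, Bcl2 and S1pr1 still passed. Calls over all genes tested also dropped in that setting, from 5553 of 18236 to the counts given further below. The Cd44 call was lost without untreated replicate 3 or 4 or treated replicate 3 or 4 (0.23 to 0.25). Scaled on the T cell markers, no member passed and the directions of Il7r, S1pr4, Foxo1, Btg1, Satb1, Bcl2 and Cd44 turned negative, at -0.79, -0.87, -0.89, -0.63, -0.03, -0.67 and -0.73. Under that scaling 0 of all 18236 genes tested were higher and 3 lower, with a median of -1.01. The loss of calls and the turned signs are thus not particular to the members. Of the 5 ratios, S1pr1 to S1pr4 differed by -0.72 and Foxo1 to Foxo3 by 0.34 (exact permutation p = 0.0286 each, adjusted 0.039). Il7r to Cd44 at 0.0984 (exact p = 0.457), Foxp1 to Satb1 at -1.22 (exact p = 0.171) and Bcl2 to Btg1 at 0.0050 (exact p = 0.857) did not pass.

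Satb1 in the libraries labelled monocytes stood in the same order as the T cell markers. It had 41.9, 67.6, 149 and 182 TMM-scaled CPM in untreated and 358, 312, 113 and 87.1 in treated libraries. Treated replicates 1 and 2 were above, and treated replicates 3 and 4 within, the untreated range. The summed T cell markers were 94.4, 189, 410 and 468 plain CPM in the same untreated and 960, 841, 310 and 239 in the same treated libraries. The Satb1 change of 0.98 ± 0.52 did not pass (adjusted p = 0.181), and with the T cell level as a covariate it was -0.10 (adjusted p = 0.191).

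**Figure D4:**
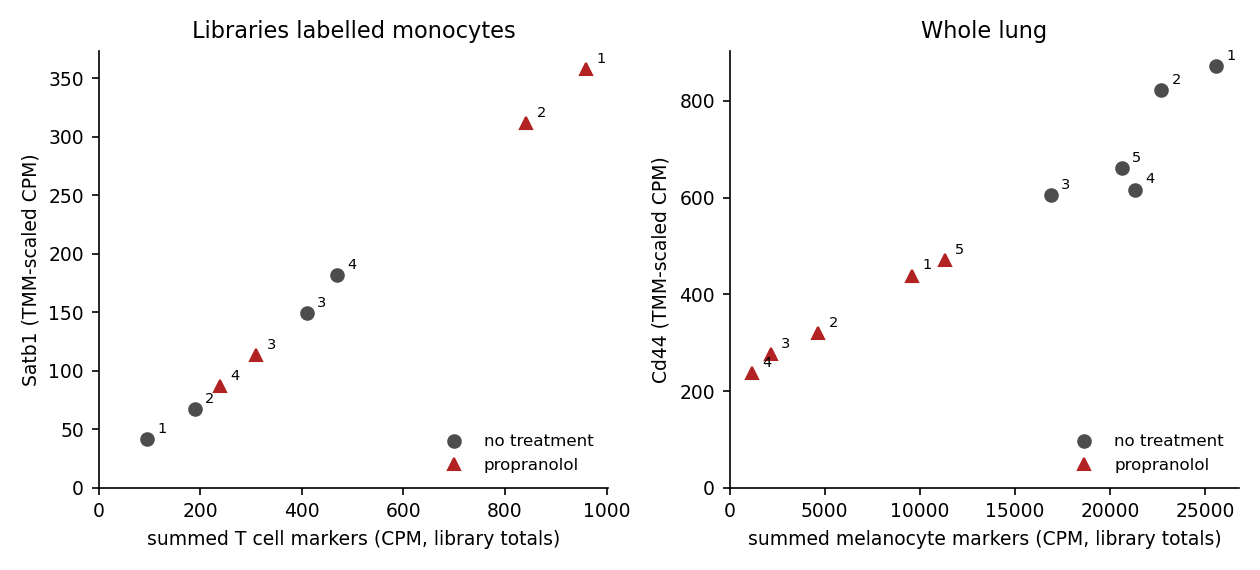
Left, Satb1 against the summed T cell markers in the 8 libraries labelled monocytes, and right, Cd44 against the summed melanocyte markers in the 10 lung libraries, both with TMM-scaled CPM on the vertical axis, plain CPM on the horizontal axis and replicate numbers beside the points. Satb1 climbs from 41.9 to 358 as the T cell sum goes from 94.4 to 960, and the lowest Cd44 value, 238, lies at the lowest melanocyte sum, 1176.

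The difference between the changes was tested directly in a joint fit of the 4 groups concerned. Between CD4 T cells and whole lung 4 members changed more positively in CD4 T cells and 2 more negatively, among 20832 genes tested of which 56.2% passed, 24.0% higher and 32.2% lower. Cd44 differed most, by 2.30 ± 0.21 on the log2 scale (adjusted p = 3.31e-08), followed by S1pr4 at -2.15 ± 0.28 (adjusted p = 3.02e-06), Il7r at -1.28 ± 0.20 and Btg1 at 1.10 ± 0.17. Satb1 (0.88 ± 0.30, adjusted p = 0.0168) and S1pr1 (0.58 ± 0.19, adjusted p = 0.0136) were the other members that passed. Foxo1 (-0.05 ± 0.15), Foxo3 (-0.21 ± 0.11), Foxp1 (0.24 ± 0.14) and Bcl2 (-0.15 ± 0.12) did not, apart from Foxo3 without treated lung library 5 (-0.28) and with the stricter filter on low counts (-0.26, adjusted p = 0.026). Against the libraries labelled monocytes, 6 members were more positive in CD4 T cells and 3 more negative, among 20023 genes of which 47.7% passed, 23.8% higher and 24.0% lower. S1pr1 differed by 2.04 ± 0.08 (adjusted p = 4.67e-13), Btg1 and Foxp1 by 1.24 each, Cd44 by 1.16 ± 0.11, S1pr4 by -0.87 ± 0.12 and Bcl2 by -0.60 ± 0.07. Il7r differed by -0.36 ± 0.13 (adjusted p = 0.0271), a call that was lost without monocyte library 3 or 4 untreated or 1 or 2 treated, or without CD4 T cell library 3 untreated or 2 or 4 treated (-0.34 to -0.28). Satb1 differed by 1.24 ± 0.57 (adjusted p = 0.0853), and it passed without monocyte library 1 untreated (1.53) or 1 treated (1.60). The kinds of material were scaled by TMM in each joint fit, so these differences carry the dependence on scaling given above.

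**Figure D5:**
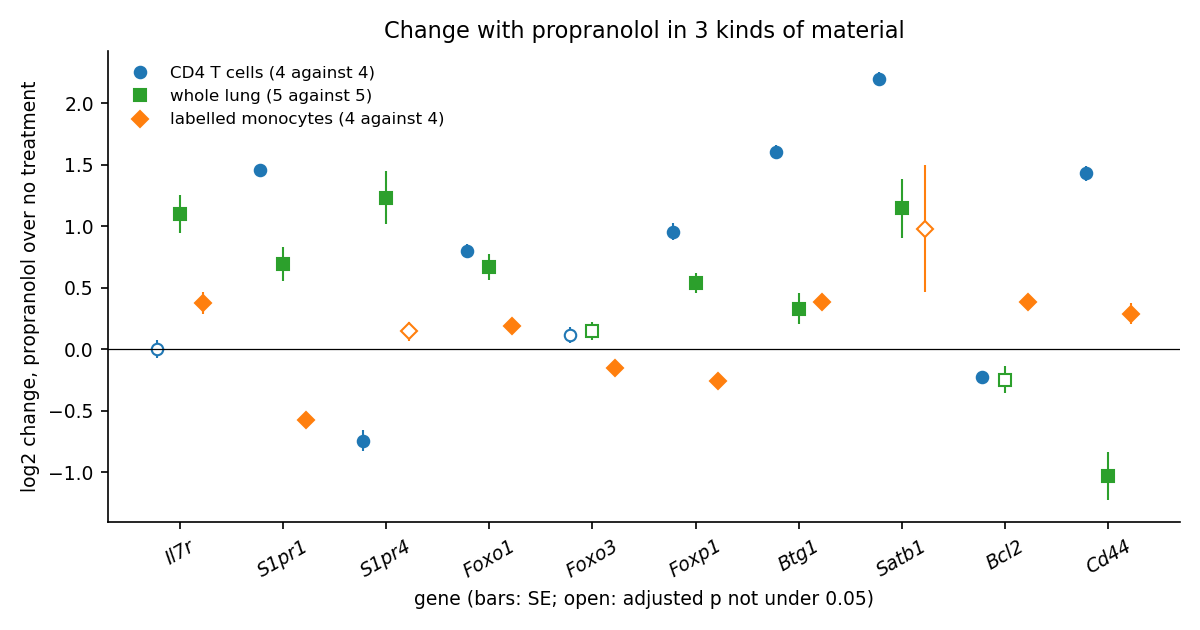
Log2 change with propranolol of each gene in CD4 T cells, whole lung and the libraries labelled monocytes (TMM, bars SE, open symbols where the adjusted p was not under 0.05). Cd44 and S1pr4 lie on opposite sides of 0 in CD4 T cells (1.43 and -0.74) and lung (-1.04 and 1.23), and S1pr1 in CD4 T cells (1.45) and the libraries labelled monocytes (-0.57).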

How the data were processed

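The authors deposited whole-number read counts per gene in 2 tables, 1 with the lung and monocyte libraries and 1 with the CD4 T cell libraries. RNA was reverse transcribed from poly(A) tails and read on a NovaSeq machine, per the labels' protocols. The submitters' processing notes name STAR 2.7.9, featureCounts, Subread 2.0.3 and the build GRCm39. Whether featureCounts used strand: not given in the sources used here. All 26 columns matched a sample title, and 52083 of 55416 identifiers (94.0%) had a symbol.

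Members and gene lists were chosen with earlier results of these data known. Counts as deposited were tested between treatments within each material by edgeR (version 4.0.16, R 4.3.3) through its quasi-likelihood F test (filterByExpr with a minimum count of 10, TMM scaling, Benjamini-Hochberg adjustment over all genes tested, threshold 0.05). Log2 changes are propranolol over no treatment. Besides the members, the rule named, per pathway list, up to 2 higher and 2 lower called genes of smallest p at a mean of at least 1 CPM and a set of stated genes (Klf2, Ccr7, Tcf7, Lef1, Il2rg, Cd69, Mcl1, Bcl2l1, Bcl2l11, Pik3ip1). Some genes of the lists are counted but not reported here by name. Ratios were tested with SciPy 1.17.1. Alternatives were DESeq2 1.42.0 (size factors, Wald test), limma 3.58.1 (voom), other filters, scalings and covariates, the replicate number as a block, and each library left out. Library totals as the scaling, summed monocyte libraries and the list counts under other scalings and without 1 library were chosen after seeing the data. The procedure was tested on simulated data. Replicate libraries differed by more than sampling noise and each counted as 1.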

Additional observations from a re-analysis of the deposited data

Results flagged for a closer look

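Of 60 sets of replicate values of the members, 3 held a library far from the rest, and chance gives about 1 in 20. All 3 were in CD4 T cells. Foxo3 in treated replicate 2 was at 171 TMM-scaled CPM, with a gap to the nearest library of 0.889 of the group's range. Il7r in untreated replicate 3 was at 387, with a gap of 0.98, and S1pr4 in untreated replicate 2 was at 125, with a gap of 0.873.

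The change with propranolol differed between CD4 T cells and whole lung for 6 members, in the interaction test of edgeR, and for 56.2% of all 20832 genes tested. The difference on the log2 scale was 2.30 for Cd44 (adjusted p = 3.31e-08), -2.15 for S1pr4 (3.02e-06), -1.28 for Il7r (2.22e-05), 1.10 for Btg1 (2.97e-05), 0.88 for Satb1 (0.0168) and 0.58 for S1pr1 (0.0136). Between CD4 T cells and the libraries labelled monocytes it differed for 9 members, and for 47.7% of all 20023 genes tested. The difference was 2.04 for S1pr1 (adjusted p = 4.67e-13), 1.24 for Btg1 (3.27e-11), 1.24 for Foxp1 (5.22e-09), 1.16 for Cd44 (1.25e-07), -0.87 for S1pr4 (9.42e-06), 0.63 for Foxo1 (1.95e-06), -0.60 for Bcl2 (1.53e-06), -0.36 for Il7r (0.0271) and 0.29 for Foxo3 (0.00242). T cell, B cell and endothelial markers also changed differently between the kinds of material, and their part in these differences was not tested.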

How the results depend on the processing

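In CD4 T cells, 6 members were higher and 2 lower under DESeq2 size factors, the DESeq2 Wald test, limma-voom, both filters, the replicate block and each library left out. On library totals, 2886 genes were higher, 8064 lower and 4 members lower, with Il7r at -0.38 and Foxo3 at -0.27. On the T cell markers, 1555 genes were higher, 11202 lower and 4 members lower, with Il7r at -0.80, Foxo1 at -0.000852 and Foxo3 at -0.68. With the B and plasma cell covariate, 6607 genes were called, 2931 of them lower, and Foxo3 was at -0.0900. Il7r, at 0.00 with TMM, was at -0.000418 with limma-voom, -0.0752 with the stricter filter, -0.00248 with the block and between -0.0559 and 0.0671 with 1 library left out.

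In whole lung, 2 members were lower with no filter and with the block, and 1 to 2 with a library left out. On the T cell markers, 497 genes were higher and 13993 lower, with 0 members higher and 7 lower (log2 changes whose sign turned: Il7r -0.26, S1pr1 -0.62, S1pr4 -0.0537, Foxo1 -0.67, Foxo3 -1.18, Foxp1 -0.78, Btg1 -0.9996, Satb1 -0.13). On resident lung cell markers, 1837 genes were higher and 10785 lower, with 2 members higher and 3 lower (likewise: S1pr1 -0.0512, Foxo1 -0.0942, Foxo3 -0.60, Foxp1 -0.20, Btg1 -0.43). With the melanocyte covariate, 3649 genes were called (1591 higher, 2058 lower), with 2 members higher, 0 lower and Bcl2 at 0.0581. The cause was not tested.

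In the libraries labelled monocytes, 3544 genes were called with the block, 1454 of them higher. On the T cell markers, 3 genes were called, 0 higher and 3 lower, and no member in either direction (Il7r -0.79, S1pr4 -0.87, Foxo1 -0.89, Btg1 -0.63, Satb1 -0.0256, Bcl2 -0.67, Cd44 -0.73). With the close libraries summed, which leaves fewer samples, 1377 were called (409 higher, 968 lower), with 2 members higher and 1 lower. Satb1 was at -0.10 with the T cell covariate, and the Bcl2 to Btg1 ratio between -0.0325 and 0.0562 with a library left out.

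The difference between CD4 T cells and lung was 0.00231 for Foxo1 with DESeq2 size factors and -0.148 to 0.00683 with a library left out, and the stricter filter left 4112 genes more negative in CD4 T cells. With a library left out of 4 against 4, the exact test of a ratio cannot go below p = 0.0571.

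Same-numbered libraries of the arms were not alike throughout, though this check cannot show that no pairing exists. Correlations of same-numbered libraries were -0.15 to 0.23 in CD4 T cells, -0.17 to 0.73 in lung and -0.67 to -0.50 in the monocyte libraries. Untreated monocyte replicates 1 and 2 correlated with treated 3 and 4, and untreated 3 and 4 with treated 1 and 2, at 0.52 to 0.68. The block moved the call of Bcl2 in lung (-0.25, adjusted p = 0.0187) and of Cd44 in the monocyte libraries (0.29, adjusted p = 0.119) and no other member's call. Depth did not limit the members, whose lowest group mean was 9.07 TMM-scaled CPM, for Il7r in untreated lung.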

Other observations

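Crem, a transcription factor gene that cyclic AMP induces in many cells, and Nr4a1 were chosen after their values were seen, since the members' promoters were read for the cyclic AMP response element. In CD4 T cells Crem went from 13.7 ± 1.37 to 1139 ± 71.8 TMM-scaled CPM with propranolol (SD, n = 4; log2 6.38 ± 0.10, edgeR adjusted p = 3.93e-12), and 0.181% of the genes tested had a larger change. In whole lung it went from 22.3 ± 1.71 to 13.8 ± 1.64 (SD, n = 5; -0.69 ± 0.10), and in the libraries labelled monocytes from 57.2 ± 4.06 to 65.7 ± 3.82 (0.20 ± 0.06). Nr4a1 likewise rose in CD4 T cells (5.41 ± 0.08) and fell in lung (-0.68 ± 0.12), and in the libraries labelled monocytes its change was 0.05 ± 0.05 (adjusted p = 0.489).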
